A study of Homo sapiens with 6 samples.

Results

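The genes described here are 10 members of the APOBEC3 and APOL clusters on chromosome 22, measured by RNA-seq in BT-549 cells with and without silencing of PBRM1. They are APOBEC3B, APOBEC3C, APOBEC3D, APOBEC3F, APOBEC3G, APOL1, APOL2, APOL3, APOL4 and APOL6, and were taken by symbol from the 37887 rows of the count table, where all 10 were present. BT-549 is an established mesenchymal-like triple-negative breast cancer (TNBC) line, and PBRM1 is the bromodomain subunit that targets the PBAF chromatin remodeling complex. The 3 shCTL libraries carry the title of a control shRNA and the treatment label DMSO, and the 3 shPBRM1 libraries carry the title of a PBRM1 shRNA and the treatment label doxycycline. The series design describes 1 line with a tetracycline-inducible PBRM1 shRNA, given 0.1% DMSO or 500 ng/ml doxycycline. By that description all libraries come from cells with the same vector, and an effect of doxycycline cannot be told apart from an effect of the silencing. No library contains doxycycline-treated cells without the PBRM1 shRNA. The titles, and the paper's name for its BT-549 cells, describe control shRNA cells beside PBRM1 shRNA cells instead. By that reading the vector also differs between the groups, and its effect cannot be told apart from the silencing either. Which description holds is not settled by the sources. The cells were grown in triplicate, and no source says that the replicates were independent cultures, so p-values measure the spread between these libraries, which may be technical.

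Levels are given in CPM, read counts scaled to the TMM-adjusted library size, as means ± SD of the 3 libraries in a group, and adjusted p-values come from edgeR's quasi-likelihood test unless another tool is named. Total counts ranged from 36429395 to 65096297 per library. A floor of 3 counts corresponded to between 0.0461 and 0.0824 CPM of the total count, which covers counting error only. PBRM1 itself had 5870, 7619 and 8118 counts in shCTL and 2598, 1591 and 2657 counts in shPBRM1 libraries, and fell by 1.91 on the log2 scale (SE 0.027, edgeR adjusted p = 9.98e-23, n = 3 per group). Of 4 genes that BT-549 is known to express strongly, VIM, FN1, CDH2 and ZEB1, the lowest mean level was 135 CPM, for ZEB1 in shPBRM1 cells. FN1 was downregulated, from 554 CPM in shCTL to 221 CPM in shPBRM1 cells (log2 fold change -1.33, edgeR adjusted p = 1.05e-17). ZEB1 fell by 0.55 on the log2 scale, and VIM and CDH2 rose by 0.31 and 0.54. ESR1, PGR and EPCAM, which the line is known to lack, stayed under 0.22 CPM on average, whereas ERBB2 was at 51.3 ± 1.10 CPM in shCTL cells, and CDH1 had between 186 and 271 counts in shCTL and between 58 and 110 counts in shPBRM1 libraries. Markers of lymphocytes and myeloid cells, several of which express APOBEC3 genes strongly, summed to between 1.69 and 1.88 CPM in shCTL and between 1.26 and 1.72 CPM in shPBRM1 libraries over 12 genes. CD3E, CD3D, CD2 and MS4A1 had no count in any library, and 3 of the 12 markers were tested. PTPRC, the pan-leukocyte marker CD45, had 26, 40 and 44 counts in shCTL and 12, 4 and 6 counts in shPBRM1 libraries (log2 fold change -2.55, edgeR adjusted p = 6.35e-06). CD14, a monocyte marker, had 9, 23 and 14 against 36, 29 and 44 counts (2.01-fold higher, edgeR adjusted p = 0.0160), a call that was lost with DESeq2 (adjusted p = 0.0517). The part of such low marker counts in the results below was not tested.

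APOBEC3 proteins are cytidine deaminases that convert cytosine to uracil in single-stranded DNA. Their best-known role is the restriction of retroviruses and endogenous retroelements, and several of them, APOBEC3B above all in breast cancer, are also known as sources of somatic mutation in tumors. Each protein is built from 1 or 2 zinc-binding domains, and the genes arose by duplication. APOL proteins, named after apolipoprotein L1, insert into membranes or form channels in them, and act in innate defense against trypanosomes and intracellular bacteria and in cell death. Most genes of both clusters are known to be inducible by interferon, and APOBEC3B is known to follow the cell cycle through the DREAM complex and E2F factors.

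The APOBEC3 genes lie head to tail on the plus strand of GRCh38, over 151 kb between APOBEC3A and APOBEC3H (chr22:38952741-39104067, GENCODE v29). APOL3, APOL4, APOL2 and APOL1 fill 127 kb (chr22:36140330-36267530), of which APOL1 alone is on the plus strand. APOL6 (chr22:35648395-35668409) lies 472 kb before APOL3, with APOL5 and RBFOX2 between them. Between APOL1 and APOBEC3A are 2685 kb, so the clusters are not neighbors.

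The duplications matter for how these genes can be counted, and the bases that encode the zinc-binding motif show it. The motif reads histidine, any residue, glutamate, a spacer, and then a proline with a pair of cysteines. APOBEC3C encodes 1 such motif and APOBEC3B, APOBEC3D, APOBEC3F and APOBEC3G encode 2, while none was found in the 5 APOL proteins of between 337 and 414 residues. The coding stretches below are from the reference, plus strand, 5′ to 3′, with the codons of the histidine, the glutamate and both cysteines in capitals. They are shown because APOBEC3B and APOBEC3F, which moved in opposite directions, share every base of the first of them.
APOBEC3B site 1 (chr22:38985833-38985937, exon 3): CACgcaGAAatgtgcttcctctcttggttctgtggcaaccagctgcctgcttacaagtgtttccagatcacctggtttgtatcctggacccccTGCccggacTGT
APOBEC3F site 1 (chr22:39044962-39045066, exon 3): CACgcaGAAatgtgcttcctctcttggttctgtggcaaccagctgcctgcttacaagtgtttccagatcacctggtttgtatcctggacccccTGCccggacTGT
APOBEC3B site 2 (chr22:38991365-38991475, exon 6): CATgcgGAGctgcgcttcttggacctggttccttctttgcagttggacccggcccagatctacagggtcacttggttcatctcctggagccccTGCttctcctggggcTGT
APOBEC3F site 2 (chr22:39052095-39052199, exon 6): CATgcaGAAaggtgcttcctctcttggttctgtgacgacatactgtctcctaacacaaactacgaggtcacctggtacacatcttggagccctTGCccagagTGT
APOBEC3C (chr22:39017787-39017891, exon 3): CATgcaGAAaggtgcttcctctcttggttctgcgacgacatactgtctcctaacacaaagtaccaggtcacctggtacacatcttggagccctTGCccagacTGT
APOBEC3G site 2 (chr22:39086312-39086416, exon 6): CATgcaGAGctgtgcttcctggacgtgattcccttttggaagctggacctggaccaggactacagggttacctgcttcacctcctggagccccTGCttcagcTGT

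Site 1 of APOBEC3B and site 1 of APOBEC3F were identical over 105 bases. Site 2 of APOBEC3B was identical over 111 bases to the only site of APOBEC3A, and site 2 of APOBEC3D was identical over 105 bases to that of APOBEC3F. APOBEC3C differed from site 2 of APOBEC3F at 4 of 105 bases, whereas site 2 of APOBEC3G matched site 2 of APOBEC3F at 56.2% of bases. Over the coding bases that aligned without gaps, APOBEC3B and APOBEC3A were 94.1% identical (597 bases) and APOBEC3C and APOBEC3F 90.2% (570 bases). APOBEC3D and APOBEC3F were 90.3% identical (1118 bases) and APOBEC3B and APOBEC3F 78.8% (1091 bases). The first 2 pairs thus compare a single-domain gene with part of a 2-domain gene. APOL1 and APOL2 were 82.1% identical and APOL3 and APOL4 79.4%.

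Reads from some stretches of the APOBEC3 genes cannot be assigned to 1 gene, either because the bases recur in a duplicate or because annotated genes overlap. Of the 50-base stretches in its transcripts, APOBEC3B shared 38.7% with another gene, mostly APOBEC3A, with which it also shares 348 exon bases at the same place in the annotation. APOBEC3F shared 21.4% and APOBEC3G 19.1%, most often with each other, and APOBEC3C shared 1.16%. APOBEC3D shared 85.8%, mostly with AL022318.4, an annotated locus of the same strand that has no row in the count table and overlaps 83.2% of the APOBEC3D exon bases. With genes of the clusters APOBEC3D shared 14.8%. Each APOL member shared at most 4.19%. Of stretches of 100 bases, APOBEC3B shared 26.3%, APOBEC3F 12.0%, APOBEC3G 11.3% and APOBEC3D 80.2%, and neither APOBEC3C nor any APOL member shared one. How many reads are affected thus depends on the read length. How the authors counted reads that match several genes, and whether counting used the strand, are not given in the sources used here. Levels of APOBEC3B, APOBEC3D, APOBEC3F and APOBEC3G are uncertain to that extent, and those of APOBEC3D most.

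Silencing PBRM1 was followed by lower transcript levels of nearly every measured member, with APOBEC3B as the exception. Of the 8 members that passed the filter on low counts, 7 were downregulated by more than 2-fold at an adjusted p under 0.05 (edgeR), namely APOBEC3C, APOBEC3F, APOBEC3G, APOL1, APOL2, APOL3 and APOL6. Among all 15450 genes tested, 9.68% were downregulated by the same rule. No member was upregulated by more than 2-fold, against 2.87% of all genes, and with no fold minimum 1 member, APOBEC3B, was higher, against 31.5% of all genes. The median log2 fold change was -3.79 over the 8 tested members and -0.0080 over all genes tested. A gene can pass the filter through the group where it is high alone, so the count and the median describe the tested members and not all 10. In bulk RNA, fewer cells expressing a gene and less RNA per cell cannot be told apart.

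**Figure D1:**
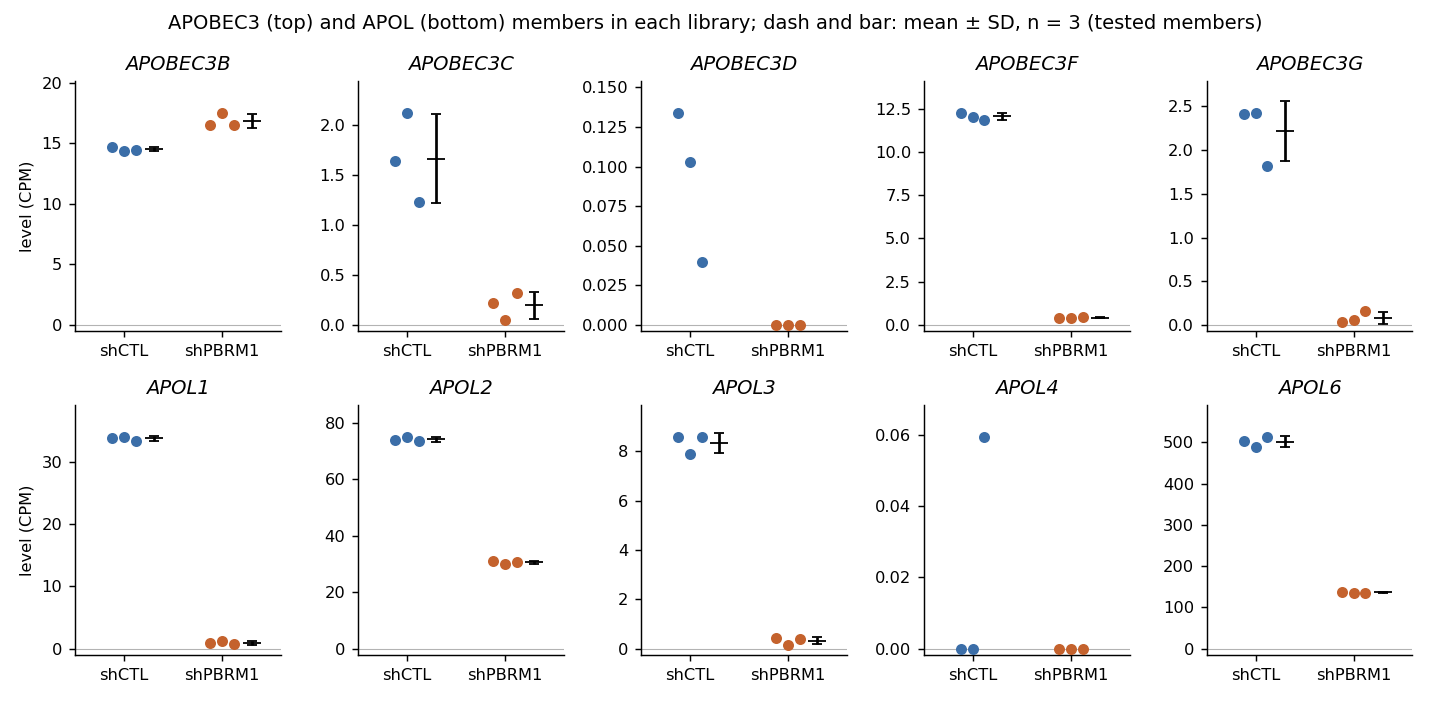
Level of each member (y axis, CPM, TMM-normalized, a separate scale per gene starting at 0) in the 3 shCTL (blue) and 3 shPBRM1 (orange) libraries, with mean ± SD (n = 3) for the 8 tested members. APOBEC3B sits higher in shPBRM1 (16.5 to 17.5 CPM) than in shCTL libraries (14.4 to 14.7 CPM), and the other tested members sit lower, with no overlap between the groups. CBX6, MYH9 and HMOX1, which lie outside the clusters and are not drawn, did not overlap either. The share of all genes tested that separates in this way was not counted.

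Within the APOBEC3 cluster, APOBEC3B, the nuclear family member with 2 domains, had 550, 700 and 728 counts in shCTL and 993, 682 and 1051 counts in shPBRM1 libraries. Scaled to library size, these were 14.7, 14.4 and 14.4 CPM against 16.5, 17.5 and 16.5 CPM. Every shPBRM1 library was thus above every shCTL library, as was also so for CBX6 and MYH9 outside the clusters. How many of all genes tested separate in this way was not counted. The averages of APOBEC3B were 14.5 ± 0.185 CPM and 16.9 ± 0.583 CPM, and the log2 fold change was 0.21 (SE 0.030, edgeR adjusted p = 0.00819), or 1.16-fold higher. That places APOBEC3B at percentile 67.7 of the log2 fold changes of all genes tested, so an increase of this size was common in these cells.

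APOBEC3C, the single-domain member, had 61, 103 and 62 counts in shCTL and 13, 2 and 20 counts in shPBRM1 libraries. Its level was 1.66 ± 0.445 CPM and 0.194 ± 0.133 CPM. APOBEC3C fell by 2.96 on the log2 scale (SE 0.63, edgeR adjusted p = 1.27e-07), or 7.79-fold. APOBEC3D, a 2-domain restriction factor, had 5, 5 and 2 counts in shCTL libraries and none in shPBRM1 libraries. Its 12 counts were too few for the filter. With the floor of 3 counts set over the shPBRM1 group and scaling by total counts, the level was 4.93-fold lower or more. That value takes the 12 shCTL counts as exact, so it is a rough limit only. When no filter was used, APOBEC3D had a log2 fold change of -5.21 (edgeR adjusted p = 0.0175) and of -4.72 with DESeq2 (adjusted p = 0.0209), fitted values that are no bound.

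APOBEC3F, a 2-domain protein known for the restriction of retroviruses, had 458, 586 and 598 counts in shCTL and 25, 15 and 29 counts in shPBRM1 libraries. The shPBRM1 libraries were all far below the shCTL libraries, with little spread inside either group. APOBEC3F went from 12.1 ± 0.207 CPM to 0.419 ± 0.0349 CPM, and fell by 4.82 on the log2 scale (SE 0.065, edgeR adjusted p = 5.50e-19), or 28.3-fold. APOBEC3G, the member best known for blocking HIV that lacks Vif, had 90, 118 and 92 counts in shCTL and 2, 2 and 10 counts in shPBRM1 libraries. APOBEC3G levels were 2.22 ± 0.344 CPM and 0.0805 ± 0.0667 CPM. The log2 fold change of APOBEC3G was -4.65 (SE 0.45, edgeR adjusted p = 8.24e-11), or 25.2-fold lower. It was -5.68 without shPBRM1 replicate 3, which holds 10 of the 14 counts in that group, and APOBEC3G stayed called in that fit (edgeR adjusted p = 4.86e-09).

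The APOBEC3 members were therefore not lowered alike. Summed over the 5 members, APOBEC3 levels were 31.2, 31.1 and 29.4 CPM in shCTL and 17.2, 18.0 and 17.4 CPM in shPBRM1 libraries, a ratio of 1.74. Without APOBEC3B, the sum went from 16.0 ± 0.948 CPM to 0.693 ± 0.220 CPM, a ratio of 23.1. Counts per kb of exon give the makeup of the cluster within a library, where library size cancels. APOBEC3B held between 60.5% and 63.1% of the members' counts per kb in shCTL and between 96.9% and 98.4% in shPBRM1 libraries. APOBEC3F held between 29.6% and 30.3% in shCTL and between 1.27% and 1.56% in shPBRM1 libraries. With the longest coding transcript as the length, the APOBEC3B share was between 54.2% and 57.2% and between 96.1% and 98.0%.

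The log2 ratio of APOBEC3B to the summed other APOBEC3 members, in counts per kb, was 0.67, 0.61 and 0.77 in shCTL and 5.30, 5.83 and 4.91 in shPBRM1 libraries. The means differed by 4.66, and the groups did not overlap (two-sided exact permutation test, p = 0.1, the smallest that 3 against 3 libraries allow). This separation follows from the values of the members given above, and the ratio was chosen with earlier results of these data known. The ratio to APOBEC3C alone differed by 3.50 and that to APOBEC3F alone by 5.03. Both genes of each ratio come from the same libraries, so the difference does not depend on how the libraries were scaled.

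**Figure D2:**
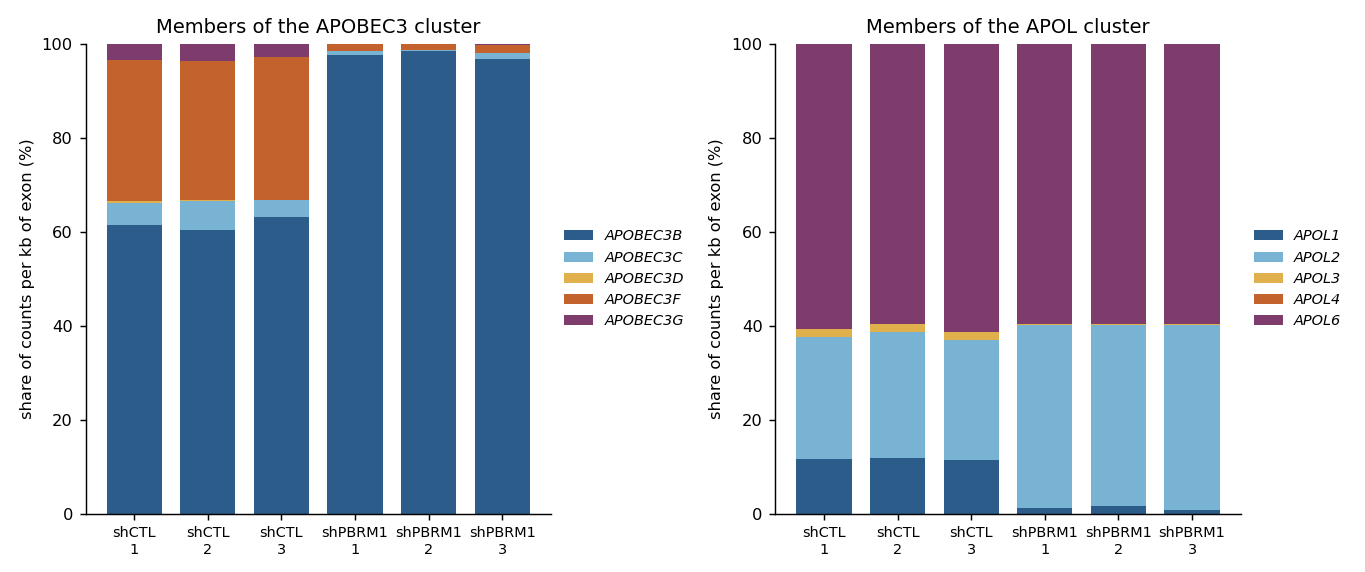
Share of each member in the counts per kb of exon of its cluster (y axis, %, from 0 to 100) in each of the 6 libraries. In the APOBEC3 cluster the APOBEC3B share was between 60.5% and 63.1% in shCTL and between 96.9% and 98.4% in shPBRM1 libraries. In the APOL cluster the APOL1 share was between 11.5% and 12.0% in shCTL and between 0.832% and 1.64% in shPBRM1 libraries, and the APOL6 share stayed between 59.6% and 61.3%.

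Of the other 2 APOBEC3 genes, APOBEC3A had 1, 1 and 3 counts in shCTL and 11, 1 and 2 counts in shPBRM1 libraries, which overlap, and APOBEC3H had none in any library. APOBEC3A is the closest relative of APOBEC3B, and in GENCODE v29 its exons take in 18.4% of the APOBEC3B exon bases on the same strand. APOBEC genes outside the cluster were also near the floor. APOBEC1 had no count in any library, and APOBEC2 and APOBEC4 had between 0 and 9 counts per library. None of these 5 genes passed the filter on low counts.

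Within the APOL cluster, APOL1, the secreted trypanolytic protein of high-density lipoprotein, had 1263, 1656 and 1684 counts in shCTL and 56, 50 and 42 counts in shPBRM1 libraries. APOL1 levels were 33.8 ± 0.344 CPM and 0.959 ± 0.314 CPM. Its decrease was the largest among the tested members, with a log2 fold change of -5.20 (SE 0.27, edgeR adjusted p = 5.66e-21), or 36.8-fold, and APOL1 ranked 67 from the bottom among all genes tested. Without shPBRM1 replicate 3, APOL1 was at -4.97 and APOBEC3G, at -5.68, had the larger decrease. The neighboring APOL2, an intracellular member without a secretion signal, had 2759, 3654 and 3708 counts against 1862, 1167 and 1963 counts. APOL2 went from 74.2 ± 0.858 CPM to 30.6 ± 0.543 CPM, a log2 fold change of -1.28 (SE 0.018, edgeR adjusted p = 8.43e-18), or 2.42-fold. APOL2 thus had the smallest decrease of the called members.

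APOL3, known to lyse intracellular bacteria, had 320, 383 and 434 counts in shCTL and 25, 6 and 24 counts in shPBRM1 libraries. APOL3 went from 8.35 ± 0.411 CPM to 0.316 ± 0.141 CPM, and fell by 4.63 on the log2 scale (SE 0.39, edgeR adjusted p = 2.90e-16), or 24.7-fold. APOL4, whose function is poorly known, had 3 counts in shCTL replicate 3 and none in the other 5 libraries. With both groups at or under the floor, APOL4 was not detectable at this depth and has no fold change. APOL6, linked to mitochondrial cell death when overexpressed, had 18744, 23769 and 25931 counts in shCTL and 8287, 5237 and 8655 counts in shPBRM1 libraries. APOL6 went from 502 ± 12.6 CPM to 136 ± 1.76 CPM, a log2 fold change of -1.88 (SE 0.024, edgeR adjusted p = 2.46e-21), or 3.69-fold. It remained the most abundant member in both groups. APOL5, next to APOL6, had no count in any library.

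The APOL members thus fell into a pair with large decreases, APOL1 and APOL3, and a pair with smaller ones, APOL2 and APOL6, and these pairs do not follow position. APOL1 and APOL2 start from opposite strands with 13.1 kb between them, and had the largest and the smallest decrease of the cluster. Their log2 ratio, APOL1 to APOL2 in counts per kb, was -1.14, -1.16 and -1.15 in shCTL and -5.06, -4.55 and -5.54 in shPBRM1 libraries. The difference of -3.90 was compared after the values had been seen (two-sided exact permutation test, p = 0.1, the smallest possible). Summed over the 5 members, APOL levels went from 618 ± 11.8 CPM to 168 ± 2.23 CPM, a ratio of 3.68. APOL6 kept between 59.7% and 61.3% of the APOL counts per kb in shCTL and 59.6% in shPBRM1 libraries, whereas APOL2 went from between 25.5% and 26.7% to between 38.6% and 39.3%.

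**Figure D3:**
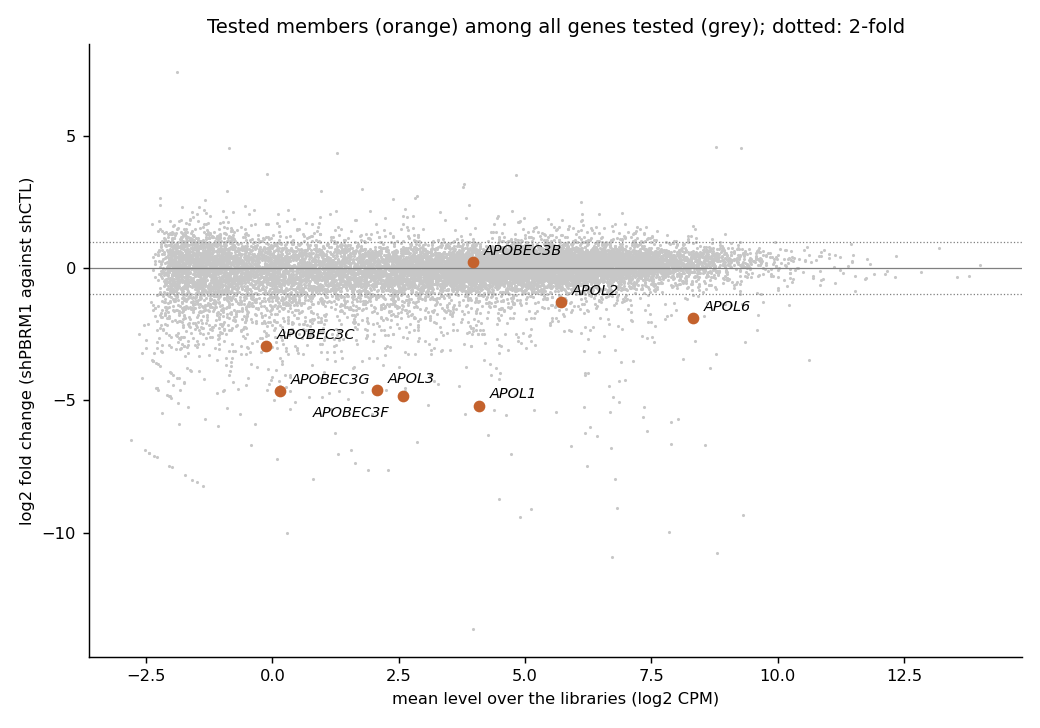
Log2 fold change of shPBRM1 against shCTL (y axis) against mean level (x axis, log2 CPM) for the 15450 genes tested (grey) and the 8 tested members (orange, named). APOBEC3B lies inside the main cloud at 0.21, APOL2 and APOL6 lie below the 2-fold line at -1.28 and -1.88, and the other 5 members lie between -5.20 and -2.96.

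Ordered by level per kb of exon, shCTL cells had APOL6 first at 49.6 CPM per kb, then APOL2 at 21.3, APOL1 at 9.60, APOBEC3B at 7.66, APOBEC3F at 3.72 and APOL3 at 1.42 CPM per kb. APOBEC3C at 0.589 and APOBEC3G at 0.408 CPM per kb overlapped between libraries, and APOBEC3D and APOL4 came last. The order of that pair also depends on the length used, since APOBEC3G was at 1.21 CPM per kb of its longest coding transcript. In shPBRM1 cells APOL6 was still first at 13.5 CPM per kb. APOBEC3B at 8.89 and APOL2 at 8.78 CPM per kb came next and overlapped, both above APOL1 at 0.272 CPM per kb. Per kb of the longest coding transcript they did not overlap, with APOL2 at a mean of 11.4 and APOBEC3B at a mean of 9.14 CPM per kb. Below APOL1 and APOBEC3F at 0.129 CPM per kb, the levels of APOBEC3C, APOL3 and APOBEC3G overlapped in turn.

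Genes on either side of the clusters mostly did not share these decreases. Of 10 genes on either side of the APOBEC3 cluster, all 10 were tested, none was downregulated by more than 2-fold and 1 was upregulated, with a median log2 fold change of 0.25. With no fold minimum 2 were lower and 5 higher. Over all genes tested, 9.68% were downregulated and 2.87% upregulated by more than 2-fold. With no fold minimum 33.2% were lower and 31.5% higher. For so few genes, the count downregulated by more than 2-fold lies near that of all genes. CBX6, a Polycomb subunit 110 kb before APOBEC3B, had 6188, 8540 and 8171 counts in shCTL and 12318, 9489 and 13942 counts in shPBRM1 libraries (log2 fold change 0.41, edgeR adjusted p = 1.24e-07). CBX7, a Polycomb subunit 32.4 kb past APOBEC3G, had a log2 fold change of -0.20 (edgeR adjusted p = 0.0470). SUN2, a nuclear envelope protein, was the gene called higher, with a log2 fold change of 1.04 (edgeR adjusted p = 2.75e-16). With library size as the only scaling its log2 fold change was 0.99, under the 2-fold minimum.

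Of 12 genes around the APOL clusters, 11 were tested, 1 was downregulated and none upregulated by more than 2-fold, and the median log2 fold change was 0.12. With no fold minimum 3 were lower and 5 higher, against 33.2% and 31.5% of all genes tested. The count downregulated by more than 2-fold again lies near the 9.68% of all genes tested. MYH9, the non-muscle myosin heavy chain gene 13.7 kb past APOL1, had 55464, 77168 and 78974 counts in shCTL and 116652, 76149 and 118815 counts in shPBRM1 libraries, or 1546 and 1921 CPM (log2 fold change 0.31, edgeR adjusted p = 2.42e-08). RBFOX2, a splicing regulator between APOL5 and APOL3, had a log2 fold change of 0.05 (edgeR adjusted p = 0.346). RASD2, a small GTPase gene, was the gene called lower, with 7, 19 and 26 counts against 8, 10 and 8 counts, which overlap (log2 fold change -1.19, edgeR adjusted p = 0.0354). Its call was lost with the replicate number as a block (edgeR adjusted p = 0.0536) and with DESeq2 (adjusted p = 0.141). Without shCTL replicate 3 the log2 fold change of RASD2 was -0.85 (edgeR adjusted p = 0.213). HMOX1, the heme oxygenase gene, fell by 0.94 on the log2 scale (edgeR adjusted p = 2.66e-16), short of 2-fold.

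**Figure D4:**
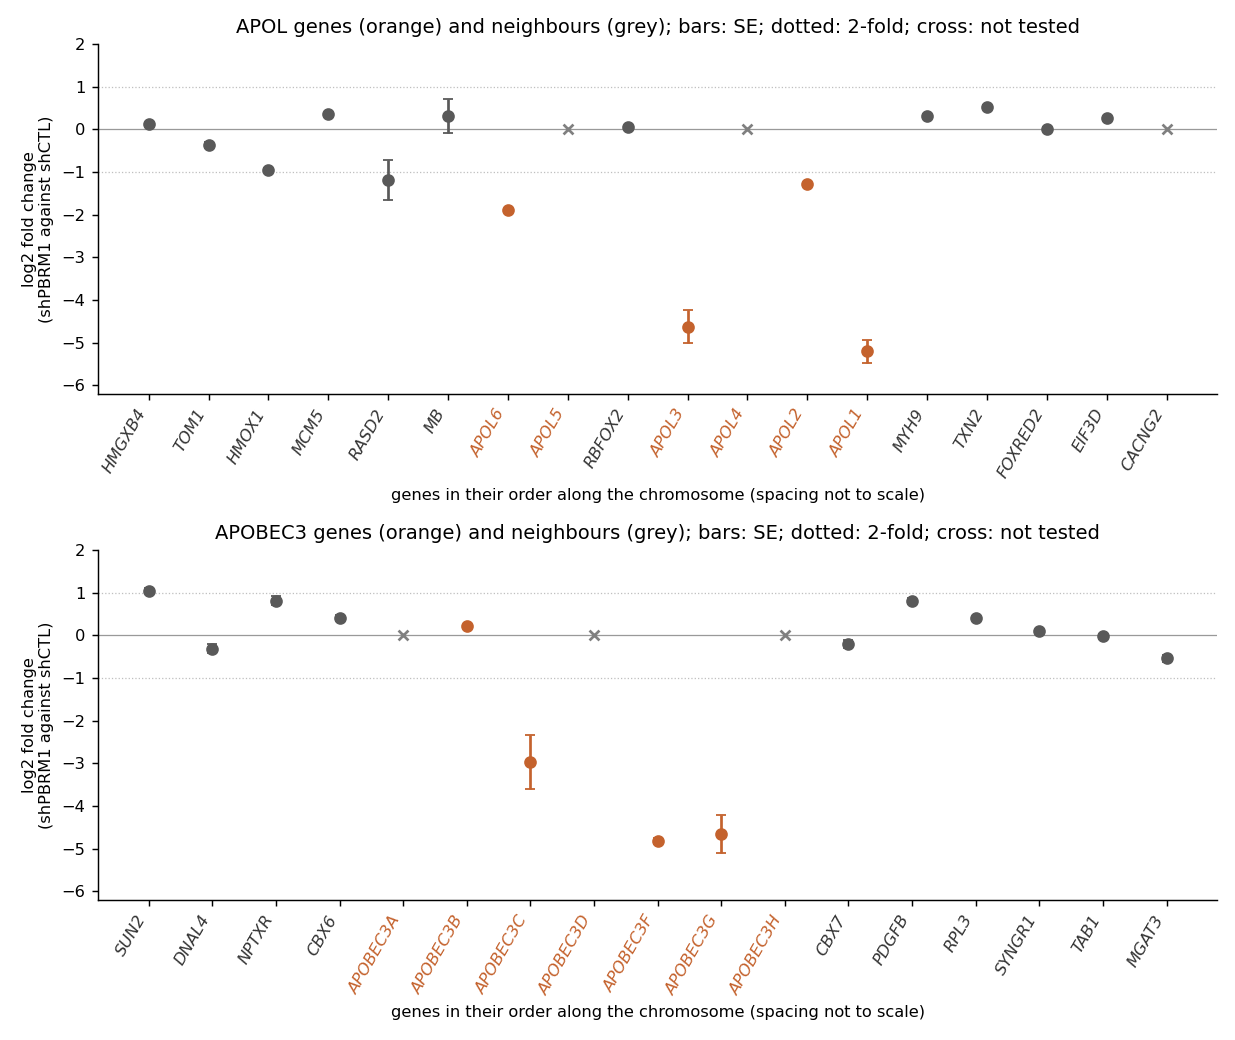
Log2 fold change of shPBRM1 against shCTL (y axis, bars are SE) for the APOL genes (top) and the APOBEC3 genes (bottom), both orange, and their neighbors (grey), in chromosomal order on the x axis. In the APOL panel the members lie between -5.20 and -1.28 and the neighbors between -1.19 and 0.52. In the APOBEC3 panel APOBEC3C, APOBEC3F and APOBEC3G lie between -4.82 and -2.96, and APOBEC3B at 0.21 lies among neighbors between -0.54 and 1.04.

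Interferon signaling runs through the kinases JAK1 and TYK2, the transcription factor STAT2 and the IRF factors. Of 8 such genes, 4 were downregulated by more than 2-fold and none upregulated, and with no fold minimum 7 were lower, with a median log2 fold change of -1.13. Over all genes tested, 9.68% were lower by more than 2-fold and 33.2% were lower with no fold minimum. STAT2 had 4881, 6533 and 6332 counts in shCTL and 1593, 991 and 1550 counts in shPBRM1 libraries (log2 fold change -2.36, edgeR adjusted p = 5.63e-23). IRF9, IRF1 and IRF7 had log2 fold changes of -1.88, -1.60 and -3.19. JAK1, TYK2 and IRF2 had smaller decreases, of -0.29, -0.21 and -0.65, and IRF3 was at 0.07 (edgeR adjusted p = 0.232). APOBEC3F, APOBEC3G, APOL1 and APOL3 thus had larger log2 decreases than any of these factors, and APOBEC3C, APOL2 and APOL6 had decreases inside their range. Whether the decreases of the members are linked to those of the factors was not tested.

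Control of APOBEC3B is known to be tied to the DREAM complex and E2F factors. The listed genes of this group were more often higher than lower with no fold minimum. Of 11 such genes, 1 was upregulated by more than 2-fold and none downregulated, and with no fold minimum 8 were higher and 1 was lower, with a median log2 fold change of 0.21. Over all genes tested, 2.87% were upregulated by more than 2-fold, and with no fold minimum 31.5% were higher and 33.2% lower. MYBL2, the B-MYB subunit that joins the MuvB core in cycling cells, had 3887, 5381 and 5402 counts in shCTL and 16844, 11135 and 17536 counts in shPBRM1 libraries (log2 fold change 1.39, edgeR adjusted p = 2.24e-19). FOXM1, its partner at mitotic genes, had a log2 fold change of 0.96, and E2F1, E2F2 and E2F3 had 0.52, 0.20 and 0.21. Of the MuvB core, LIN9, LIN54 and RBBP4 had log2 fold changes of 0.38, 0.21 and 0.32, LIN52 fell by 0.34, and LIN37 was at -0.13 (edgeR adjusted p = 0.453). TFDP1 was at -0.02 (edgeR adjusted p = 0.621). The list does not hold every subunit of the DREAM complex, so the counts cover the listed genes only. Whether these genes are linked to APOBEC3B in BT-549 cells was not tested.

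Uracil left in DNA by APOBEC3 enzymes is known to be excised by glycosylases and handled downstream by APEX1, HMCES and translesion polymerases. None of 8 such genes changed by more than 2-fold, and with no fold minimum 4 were higher and 2 lower, with a median log2 fold change of 0.14. With 31.5% of all genes higher and 33.2% lower by that rule, these counts lie near those of all genes. UNG, the main uracil glycosylase, had 1471, 1932 and 2012 counts in shCTL and 2879, 1848 and 3089 counts in shPBRM1 libraries (log2 fold change 0.27, edgeR adjusted p = 8.67e-06). TDG, which excises mispaired thymine and uracil, had 0.53, MBD4, a glycosylase of methylated CpG sites, fell by 0.44, and REV3L, the catalytic subunit of polymerase zeta, fell by 0.37 on the log2 scale. SMUG1 and REV1 did not pass the test (log2 fold changes 0.16 and 0.04, edgeR adjusted p = 0.0773 and 0.634).

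**Figure D5:**
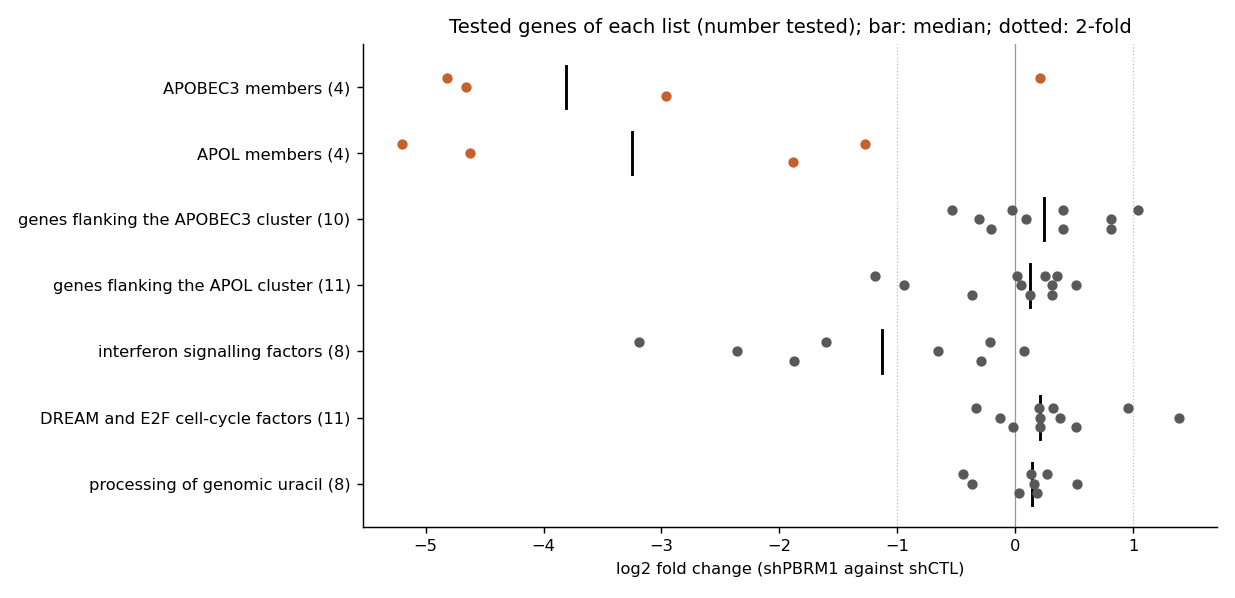
Log2 fold change of shPBRM1 against shCTL (x axis) for each tested gene of the members (orange) and of 5 other lists (grey), with the list's median as a black bar and the number tested in parentheses. The medians of the interferon factors (-1.13), of the APOL members (-3.25) and of the APOBEC3 members (-3.81) lie below 0. Those of the genes flanking the clusters, the DREAM and E2F factors and the uracil-processing genes lie between 0.12 and 0.25. The APOBEC3 members span -4.82 to 0.21.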

How the data were processed

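RNA-seq of BT-549 cells was analyzed in 2 groups of 3 libraries, shCTL and shPBRM1, grouped by their titles. Library preparation used the TruSeq Stranded mRNA kit, which selects poly(A) transcripts. The submitters' processing notes name CASAVA 1.8.2, STAR 2.7.9a, featureCounts, DESeq2 1.24.0 and GRCh38.p7; the strand setting, the annotation release and the handling of reads matching several genes are not given in the sources used here. Values are raw counts for each gene symbol, not normalized, and were used as the authors deposited them. Control columns carry a replicate number but no group, and were matched to the control titles by that number and by lacking the shPBRM1 name. Of 37887 rows, 12608 had no count and 14 carried dates in place of symbols.

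The test was edgeR 4.0.16's quasi-likelihood F-test in R 4.3.3 (TMM, filterByExpr, Benjamini-Hochberg adjustment over 15450 genes). A gene was called when its adjusted p was under 0.05 and it changed more than 2-fold. SEs are those of the difference in mean log2 CPM (2 counts added), from the replicates' spread. They do not come from the fit that gave the log2 fold changes, and the added counts shrink the spread of low counts. The floor was 3 counts. Log2 ratios within a library used 0.5 added counts per gene and all annotated exon bases as length. Libraries of a group differed by more than sampling noise (chi-square divided by its degrees of freedom, 4.66 to 22.6), and each was counted as a replicate. Deviations from the group means were compared over the 5622 genes whose mean log2 CPM exceeded 5. Same-numbered libraries correlated at 0.734, 0.593 and 0.419 for numbers 1, 2 and 3. Replicate 2 of shCTL and replicate 3 of shPBRM1 correlated at 0.464, above the value for number 3. Pairing by the number in the titles is therefore uncertain for number 3. The number was fitted as a block in an alternative only. The tests were tested on simulated data. Positions, exon overlaps, shared stretches of 50 and 100 bases and coding sequences come from GENCODE 29 on GRCh38, matched by symbol (Python 3.11.15, scipy 1.17.1). RefSeq promoter entries matched 0 of the 10 members.

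The members, lists and tests were chosen with earlier results of these data known. Named genes are the 10 members, PBRM1, the other genes of both clusters and the listed genes (other deaminases, flanking genes, interferon factors, DREAM and E2F factors, uracil processing and cell type markers). Results for some listed genes are not reported here, and the list counts leave those genes out. Alternatives were DESeq2 1.42.0, RLE size factors, scaling by library size alone, no filter, a filter at a mean of 50 counts, the replicate block, glmTreat at 2-fold, no fold minimum and leaving out each library. Other lengths, the ratio to APOBEC3F and the ratio of APOL1 to APOL2 were added after the data had been seen.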

Additional observations from a re-analysis of the deposited data

How the results depend on the processing

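All 8 tested members kept their direction in every alternative that tested them, and the 7 downregulated members kept their call wherever they were tested. The number downregulated was between 6 and 8: requiring a mean of 50 counts removed APOBEC3C from the test, and no filter and DESeq2 added APOBEC3D. With no fold minimum the number upregulated was 1, APOBEC3B, with a log2 fold change of 0.21. The log2 fold change of APOBEC3B was between 0.16 and 0.23 over all alternatives, with an adjusted p between 0.00401 and 0.0412 in the edgeR and DESeq2 fits against no change, and an adjusted p of 1.0 with glmTreat. Leaving out each library gave 7 downregulated and 0 upregulated members each time, and moved the log2 fold change of APOBEC3C between -3.45 and -2.62, of APOBEC3G between -5.68 and -4.22, of APOL1 between -5.40 and -4.97 and of APOL3 between -4.83 and -4.38. The log2 ratio of APOBEC3B to the other APOBEC3 members differed by between 3.50 and 5.03 (4.42 to 4.88 with a library left out, where the smallest exact p is 0.2), and that of APOL1 to APOL2 by between -4.15 and -3.65. With the replicate block, the APOBEC3B value was 0.21 (edgeR adjusted p = 0.00401), and the block changed the call of no member. Over all genes, 1496 were downregulated and 443 upregulated, against 941 and 270 when a mean of 50 counts was required, 913 and 175 with glmTreat and 5137 and 4863 with no fold minimum. Library size as the only scaling moved the median log2 fold change of all genes by -0.05. Depth limits APOBEC3D, APOL4 and APOBEC3A, which had between 0 and 11 counts per library, and the shPBRM1 levels of APOBEC3C and APOBEC3G, which rest on 35 and 14 counts in all.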
